A study of Mus musculus with 24 samples.

Results

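Gene expression in the amygdala was compared with that in the hippocampus of male mice (Mus musculus) of line 24, which the labels call the low freezing line. The series title names selection on contextual fear conditioning, which scores how long mice stay motionless in a chamber where a shock was given before. The 12 arrays of line 24, out of 24 in the series, were taken by tissue and line from the sample descriptions: 6 of amygdala (arrays 1 to 6) and 6 of hippocampus (arrays 1 to 6). Both groups carry the same line and sex, so tissue is what the labels vary between them. The remaining 12 arrays are the same tissues from males of line 25, the high freezing line, and serve below as a second set of arrays. Ages, handling, any training before the tissue was taken and pooling of animals were not stated in the labels. Line 24 is a single breeding line, and the p-values measure the spread between these arrays, which may in part be technical.

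The amygdala assigns emotional value to stimuli and drives freezing and other defensive responses, and the hippocampus encodes the place in which a shock occurred. They also differ in origin and build. The hippocampus is pallial cortex, made mostly of glutamatergic pyramidal cells in the CA fields and granule cells in the dentate gyrus. The amygdala joins pallial, mainly glutamatergic nuclei (basolateral and cortical) with largely subpallial nuclei (central and medial). Many neurons of the latter are GABAergic, close relatives of striatal projection neurons and rich in neuropeptides, though not all are. In tissue extracts such as these, fewer cells of a type and less RNA per cell cannot be told apart.

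Values are log2(signal + 16) of the deposited linear intensities, on which 4 is the floor, and a difference is always amygdala minus hippocampus, so a negative value means higher in hippocampus. Each is given with the standard error (SE) of the limma fit over 6 and 6 arrays. A probe set, which is a group of short probes reading 1 transcript or part of it, was called when its p, adjusted by Benjamini and Hochberg's method over 45037 probe sets, was under 0.05. Each gene was read from its probe set of highest mean. Other probe sets of a gene were not always called, and where no tally is given none is implied. For Camk4 and Igf1r 1 of 5 was called, for Gabrg3 1 of 4, and for Esr1 and Cacna2d2 1 of 3. For Gad2, Chrna7, Htr1b, Cacng8, Glra3 and Grik3 it was 1 of 2. The same held for Dcn, Gabrd, Grik1, Htr4, Crhr1 and Ddc, and these tallies are not a full list. Folds are on this log2(signal + 16) scale, which understates changes of low genes, and none is given where the median of the dimmer tissue was under 5, that is, where its signal was under the pseudocount of 16. A level is not compared between genes, because probes differ in efficiency. Array medians were 44.1 to 50.5 in linear signal. Arrays of amygdala correlated with each other at 0.966 to 0.978 and those of hippocampus at 0.963 to 0.978, against 0.950 to 0.966 between tissues. The first principal component, with 25.9% of the variance, put every amygdala array between 33.3 and 38.0 and every hippocampus array between -39.8 and -32.6. On the second (11.4%), hippocampus array 6 stood at -60.8 while the other 11 arrays lay between -16.1 and 24.8; without that array 5092 probe sets were called.

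The tissues also differed in control probe sets, some of which do not measure mouse messenger RNA. Transcripts of the bacterial gene dap, made to be added to a sample as poly-A controls before labelling, read 1563 to 1912 in linear signal on the 6 hippocampus arrays. They read 60.7 to 71.9 on 5 amygdala arrays and 1972 on amygdala array 3. In the high line the 6 hippocampus arrays were at 2077 to 2490 and the 6 amygdala arrays at 55.5 to 92.7. Signal at the 5' end of 18S ribosomal RNA ran from 295.5 to 1148 in amygdala and 5859 to 7093 in hippocampus, with no overlap (exact permutation test, two-sided, p = 0.00216, adjusted p = 0.00974 over 18 array measures). Of the 18 measures, which include summaries of the whole array, 15 differed at adjusted p under 0.05. The poly-A and hybridization controls among the 18 were added after the data were seen. The ratio of 5' to 3' signal, a sign of RNA integrity, was 1.27 to 1.41 in amygdala and 1.36 to 1.45 in hippocampus for Gapdh (adjusted p = 0.0223, same exact permutation test), and 0.497 to 0.630 and 0.541 to 0.582 for actin (adjusted p = 0.95). Hippocampus arrays also read higher in actin 5' (adjusted p = 0.013) and 3' (0.0416), in Gapdh 5' (0.0146) and in the hybridization controls bioB (0.0223) and cre (0.013). Gapdh 3' read 6294 to 7538 in amygdala and 6627 to 8094 in hippocampus (adjusted p = 0.0901). The part of these measures in the results was not tested. Apart from amygdala array 3, preparation and tissue cannot be told apart in these arrays. For a further fit, chosen after seeing the data, arrays were marked as high where dap read above 500 in linear signal and low otherwise. This mark, not the measured amount, is the poly-A term or poly-A level named below. In that fit the tissue effect rests on amygdala array 3 against the 6 hippocampus arrays. That lone array is assumed to vary like the others. In summed linear signal of gene lists given below, it was the highest amygdala array for some lists and the lowest for others. It was highest for subpallial regulators (7428, the others 5788 to 6849) and neuropeptides (16796, the others 14743 to 15989). For basolateral and cortical amygdala genes it was lowest (6244, the others 6615 to 7056). The part of these values in the counts of that fit was not tested. That fit called 1541 probe sets, 1304 of them among the original 5424 and in the same direction. The sign was the same for 5387 of the 5424 (99.3%) and for all 673 that differed by 2-fold or more. Amygdala array 3 and the 6 hippocampus arrays also entered the fit that chose these probe sets. Agreement in sign is therefore in large part built in and is no separate evidence.

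**Figure D1:**
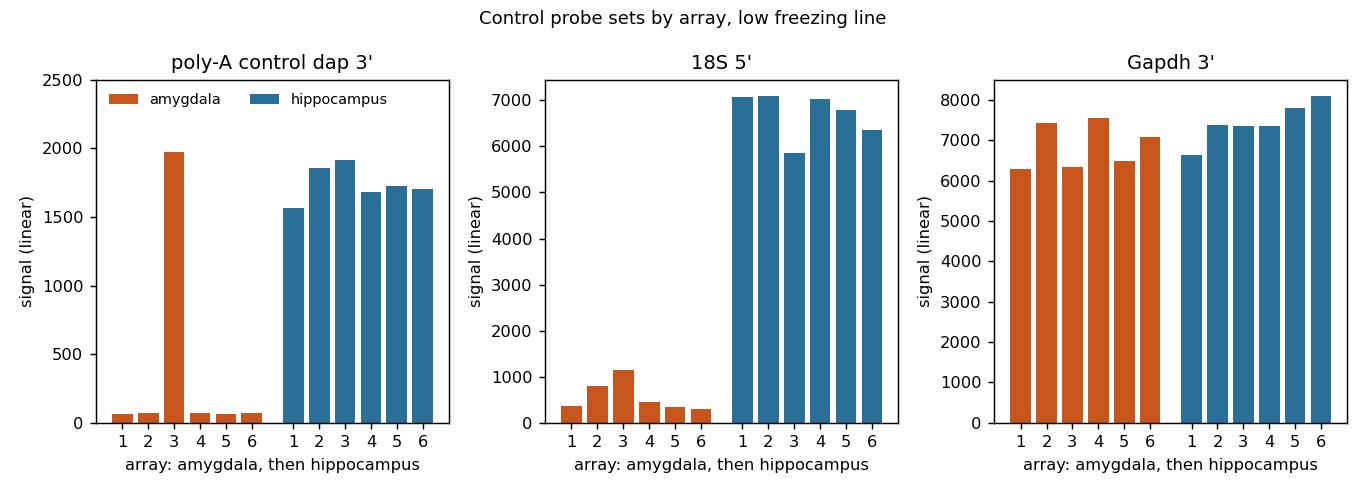
Linear signal (vertical axes, from 0) of 3 control probe sets on each of the 12 low-line arrays (horizontal axes: amygdala arrays 1 to 6, then hippocampus arrays 1 to 6), 1 bar per array. The poly-A control dap is high on all hippocampus arrays and on amygdala array 3 (1972), the 18S 5' signal is at most 1148 on the amygdala arrays and at least 5859 on the hippocampus arrays, and Gapdh 3' overlaps between tissues.

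Of the 45037 probe sets, 5424 (12.0%) passed: 2802 read higher in amygdala, 2622 in hippocampus. Which direction held more calls depended on the scaling: the counts were 2638 and 2780 after quantile normalization, 2188 and 2927 after median centring, and 735 and 806 with the poly-A term. For 3990 probe sets (8.86%) the values of the tissues did not overlap on any array. Genes named below for a large difference were chosen on these same arrays, so their lack of overlap follows largely from that choice. A difference of at least 2-fold was called for 673 probe sets (1.49%), 382 higher in amygdala and 291 higher in hippocampus. Counted by gene, 1533 of 18193 genes (8.43%) were higher in amygdala and 1208 (6.64%) higher in hippocampus, while 224 (1.23%) and 138 (0.759%) reached 2-fold. The median difference over all genes was 0.02. Every list count below is to be read beside the shares of 8.43% for amygdala and 6.64% for hippocampus. Small counts can lie near them, such as 1 of 16 acetylcholine genes and 2 of 17 NMDA list genes for amygdala, or 1 of 16 retinoic acid genes for hippocampus. List counts with the poly-A term are to be read beside the totals of that fit out of 18193 genes, given next. With the poly-A term the called genes were 438 for amygdala and 371 for hippocampus.

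Genes of dentate granule cells gave the largest differences among named genes in favour of hippocampus. Dsp, which encodes the desmosome protein desmoplakin, read 4.59 to 5.18 (median 4.97) in the 6 amygdala samples and 8.67 to 9.01 (median 8.76) in the 6 hippocampus samples, a difference of -3.87 ± 0.10 (adjusted p = 7.72e-10). Lct, the gene of lactase, read 4.11 to 5.40 (median 4.85) in the 6 amygdala samples and 8.32 to 8.74 (median 8.52) in the 6 hippocampus samples, a difference of -3.73 ± 0.17 (adjusted p = 3.91e-08). For both genes every hippocampus array lay far above every amygdala array, and the amygdala values were near the floor, so the size of the difference depends on the pseudocount: it was -4.82 with 1 and -2.65 with 64 for Dsp, and -5.02 and -2.44 for Lct. C1ql2, a secreted organizer of mossy fibre synapses, read 4.73 to 5.99 in amygdala, median 5.80, and 8.06 to 8.84 in hippocampus, median 8.43, a 7.34-fold difference (adjusted p = 1.98e-06). Tdo2, tryptophan 2,3-dioxygenase, read 4.09 to 4.67 in amygdala, median 4.22, and 6.37 to 7.13 in hippocampus, median 6.88, a difference of -2.53 ± 0.13 (adjusted p = 8.27e-08) that was -4.66 with a pseudocount of 1 and -1.25 with 64. Prox1, the homeodomain factor that sets granule cell identity, read 5.57 to 5.84 in amygdala, median 5.62, and 7.32 to 7.85 in hippocampus, median 7.77, a 4.01-fold difference (adjusted p = 7.46e-08). None of these overlapped between tissues. Of 20 measured genes of the granule cell list, 13 were higher in hippocampus (6.64% of all genes were) and 9 of those by 2-fold or more, with a list median of -0.92. Higher in amygdala were C1ql3 (0.47 ± 0.10, adjusted p = 0.00711), a relative of C1ql2, and Calb1, the calcium buffer calbindin (0.32 ± 0.085, adjusted p = 0.026). The call of Calb1 was lost, at adjusted p up to 0.0611, without amygdala array 4 or 5 or without hippocampus array 3, 4 or 6. A fit with the poly-A term called 10 for hippocampus and 1 for amygdala.

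Pyramidal cell genes of the CA fields were higher in hippocampus as well, 17 of 19 measured. Lefty1, an inhibitor of Nodal signalling, read 4.55 to 5.37 in amygdala, median 4.61, and 7.37 to 8.00 in hippocampus, median 7.65, a difference of -2.92 ± 0.15 (adjusted p = 6.47e-08), and its single high amygdala value came from array 1. The difference of Lefty1 was -4.08 with a pseudocount of 1 and -1.74 with 64. Cabp7, a calcium-binding protein, read 7.30 to 8.10 in amygdala, median 7.72, and 10.19 to 10.53 in hippocampus, median 10.35, a 6.16-fold difference (adjusted p = 4.28e-08). Pou3f1, a POU-domain factor, differed by -2.26 ± 0.16 (adjusted p = 9.51e-07), and Fibcd1, a marker of CA1, by -2.01 ± 0.24 (adjusted p = 7.76e-05). For Fibcd1 the amygdala arrays were spread widely and yet all below the hippocampus arrays, at 5.23 to 6.89 in amygdala, median 6.19, and 8.04 to 8.31 in hippocampus, median 8.12. Of the 17, 11 reached 2-fold, and the list median was -1.09. Wfs1, the endoplasmic reticulum protein wolframin, went the other way, at 9.91 to 10.28 in amygdala, median 10.09, and 9.11 to 9.41 in hippocampus, median 9.17, a 1.81-fold difference (adjusted p = 1.34e-05). Summed over the list, linear signal was 6858 to 8293 in amygdala and 14566 to 15639 in hippocampus. With the poly-A level as a term, 13 were called for hippocampus and 1 for amygdala.

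Regulators of pallial glutamatergic neurons, a list of transcription factors with the vesicular glutamate transporters, were higher in hippocampus for 13 of 18 measured and in amygdala for 3. Neurod6, a basic helix-loop-helix factor of pyramidal neurons, read 7.89 to 9.35 in amygdala, median 8.73, and 10.40 to 10.83 in hippocampus, median 10.69, a 4.01-fold difference (adjusted p = 1.93e-05). Zbtb20, a zinc finger repressor needed for hippocampal identity, read 9.13 to 9.28 in amygdala, median 9.21, and 10.85 to 11.09 in hippocampus, median 10.88, a 3.3-fold difference (adjusted p = 1.71e-08), and all 9 of its probe sets were called in that direction. Nfix, a nuclear factor I protein, differed by -1.50 ± 0.063 (adjusted p = 2.09e-08) and Neurod1 by -1.24 ± 0.12 (adjusted p = 2.00e-05). The 3 exceptions were Slc17a6, the vesicular glutamate transporter VGLUT2 (1.21 ± 0.22, adjusted p = 0.00268), Mef2c, an activity-regulated MADS-box factor (1.16 ± 0.067, adjusted p = 1.66e-07, 5 of 5 probe sets), and Tbr1 (0.47 ± 0.12, adjusted p = 0.0236). The call of Tbr1 was lost without amygdala array 5 or hippocampus array 3, at adjusted p up to 0.0563. Genes outside these lists among the 15 of largest difference were Ccbe1 (-2.19 ± 0.18), the zinc finger factor gene St18 (-2.18 ± 0.12), Olfml2b (-2.08 ± 0.11), the cytokine gene Il16 (-2.07 ± 0.20) and Tanc1, a postsynaptic scaffold (-2.03 ± 0.072). Their adjusted p ran from 1.00e-08 for Tanc1 to 1.30e-05 for Il16, and none overlapped between tissues.

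**Figure D2:**
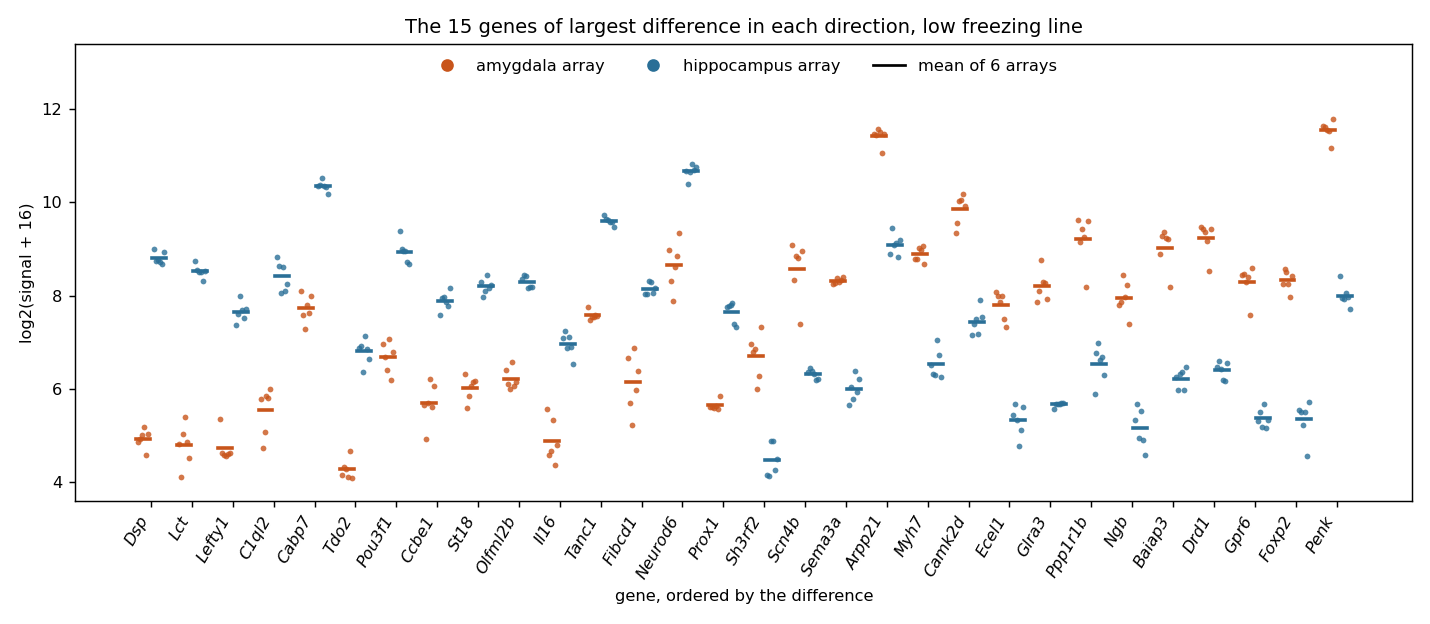
Level in log2(signal + 16) (vertical axis) of the 15 genes of largest difference in each direction (horizontal axis, from the most hippocampal, Dsp, to the most amygdalar, Penk), with 1 point per low-line array and a line at the mean of 6 arrays. The tissues do not overlap for any of the 30 genes, which follows largely from their choice by size of difference on these arrays (8.86% of all probe sets do not overlap). Amygdala array 5 gives the single low amygdala point of Gpr6, Drd1, Ppp1r1b and Arpp21.

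The largest difference over all probe sets, 4.41 and higher in amygdala, was that of a probe set with no gene name here, and among named genes it was that of Penk, the precursor of the enkephalin opioid peptides. It read 11.16 to 11.78 (median 11.59) in the 6 amygdala samples and 7.71 to 8.42 (median 7.96) in the 6 hippocampus samples, a difference of 3.54 ± 0.13 (11.7-fold, adjusted p = 1.00e-08), and every amygdala array lay far above every hippocampus array. Foxp2, a forkhead factor found in intercalated and medial amygdala neurons and in striatum, read 7.96 to 8.58 in amygdala, median 8.34, and 4.57 to 5.73 in hippocampus, median 5.51, a 7.92-fold difference (adjusted p = 2.10e-07), and all 6 of its probe sets were called. Baiap3, a protein of dense-core vesicle trafficking, read 8.18 to 9.36 in amygdala, median 9.23, and 5.97 to 6.47 in hippocampus, median 6.28, a 6.99-fold difference (adjusted p = 5.35e-07). Ecel1, a membrane peptidase, read 7.32 to 8.09 in amygdala, median 7.93, and 4.77 to 5.68 in hippocampus, median 5.39, a 5.54-fold difference (adjusted p = 8.52e-07). Of 22 measured genes of the central and medial amygdala list, 19 were higher in amygdala (8.43% of all genes were) and 0 in hippocampus, with a median of 1.54. The 3 that did not pass were Ezr, Prkcd and Sim1, of which Prkcd, the kinase that marks a class of central amygdala neurons, differed by 0.14 and Sim1 was below the array median on all 12 arrays. The summed linear signal of the list was 9746 to 11338 in amygdala and 2798 to 3166 in hippocampus. Such a sum is set mostly by the brightest members of a list, here Penk and Sst. Once the poly-A level was a term, 15 were called.

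Genes of striatal projection neurons, the GABAergic output cells of the striatum, were higher in amygdala throughout: 17 of 17 measured, 16 of them by 2-fold or more. Drd1, the D1 dopamine receptor, read 8.52 to 9.48 (median 9.40) in the 6 amygdala samples and 6.17 to 6.60 (median 6.45) in the 6 hippocampus samples, a difference of 2.83 ± 0.16 (7.12-fold, adjusted p = 1.22e-07). Drd2, the D2 receptor, read 6.64 to 7.61 in amygdala, median 7.44, and 5.04 to 5.78 in hippocampus, median 5.22, a 4.18-fold difference (adjusted p = 4.05e-06). Gpr6, an orphan receptor of the D2 pathway neurons, read 7.58 to 8.59 in amygdala, median 8.43, and 5.16 to 5.69 in hippocampus, median 5.33, a 7.63-fold difference (adjusted p = 1.06e-07). Ppp1r1b, which encodes the dopamine-regulated phosphoprotein DARPP-32, read 8.19 to 9.62 in amygdala, median 9.35, and 5.90 to 6.99 in hippocampus, median 6.64, a 6.37-fold difference (adjusted p = 8.86e-06), and Arpp21, another cAMP-regulated phosphoprotein, differed by 2.33 ± 0.12 (adjusted p = 5.98e-08). Scn4b, a sodium channel subunit, differed by 2.25 ± 0.24 (adjusted p = 3.03e-05). No gene of the 6 overlapped between tissues. The amygdala arrays were uneven here: the summed linear signal of the list was 7794 on amygdala array 5, 11041 to 12597 on the other 5 and 2839 to 3140 in hippocampus. Without amygdala array 5 or any other single array the number called was within 1.5 times the 17, and with the poly-A term it was 15. Central amygdala neurons and the neighbouring striatum share many of these genes, and the part of striatal tissue in this result was not tested.

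Subpallial transcription factors gave 16 of 22 higher in amygdala and 0 higher in hippocampus. Pbx3 read 8.68 to 9.39 in amygdala, median 8.93, and 6.59 to 7.00 in hippocampus, median 6.79, a 4.5-fold difference (adjusted p = 1.50e-07) and Meis2, its TALE-class partner, read 10.26 to 10.61 in amygdala, median 10.32, and 7.99 to 8.57 in hippocampus, median 8.29, a 4.43-fold difference (adjusted p = 6.91e-08, 4 of 4 probe sets). Isl1, a LIM-homeodomain factor of striatal and medial amygdala lineages, read 5.74 to 6.71 in amygdala, median 6.44, and 4.05 to 4.57 in hippocampus, median 4.18, a difference of 2.10 ± 0.17 (adjusted p = 3.00e-06), and as it lay at the floor in hippocampus the difference was 4.24 with a pseudocount of 1 and 0.96 with 64. The 6 that did not pass included Dlx1 (-0.06) and Dlx2 (0.06), homeobox genes of all forebrain GABAergic lineages, and Nkx2-1, which was below the array median on all 12 arrays. A poly-A term in the fit gave 10 calls. Of 19 genes of interneurons and GABA synthesis, 8 were higher in amygdala and 1 in hippocampus. Slc32a1, the vesicular GABA transporter, read 9.10 to 9.63 in amygdala, median 9.42, and 7.80 to 8.13 in hippocampus, median 7.98, a 2.63-fold difference (adjusted p = 1.44e-06), and Gad2, which makes GABA at terminals, differed by 1.17 ± 0.085 (adjusted p = 1.15e-06). Pvalb, the calcium buffer of fast-spiking interneurons, was the 1 higher in hippocampus and read 7.54 to 8.20 in amygdala, median 8.04, and 8.80 to 9.11 in hippocampus, median 8.99, a 2-fold difference (adjusted p = 5.35e-05). That count was 2 without amygdala array 1 or 3. A poly-A term in the fit gave 5 and 1 calls.

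Genes of the glutamatergic basolateral and cortical nuclei were divided. Of 13 measured, 6 were higher in amygdala and 3 in hippocampus, and the median was 0.11. Lypd1 read 9.81 to 10.10 in amygdala, median 9.94, and 7.71 to 8.44 in hippocampus, median 8.21, a 3.6-fold difference (adjusted p = 8.20e-07). Cyp26b1, which degrades retinoic acid, read 8.29 to 8.63 in amygdala, median 8.53, and 6.36 to 6.98 in hippocampus, median 6.67, a 3.6-fold difference (adjusted p = 2.10e-07). Cdh4, R-cadherin, differed by 1.77 ± 0.12 (adjusted p = 6.59e-07) and Otof, otoferlin, by 1.69 ± 0.15 (adjusted p = 8.86e-06). Higher in hippocampus were Dcn, the matrix proteoglycan decorin (-1.77 ± 0.14, adjusted p = 2.69e-06), Lhx9, a LIM-homeodomain factor (-1.39 ± 0.13, adjusted p = 7.95e-06), and Cck, the peptide cholecystokinin (-0.59 ± 0.080, adjusted p = 2.71e-04). Rspo2, a Wnt agonist that marks basolateral neurons, differed by 0.01 and was not called. Summed linear signal of the list overlapped, at 6244 to 7056 in amygdala and 6063 to 6684 in hippocampus. In the fit with the poly-A term 5 and 3 were called.

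**Figure D3:**
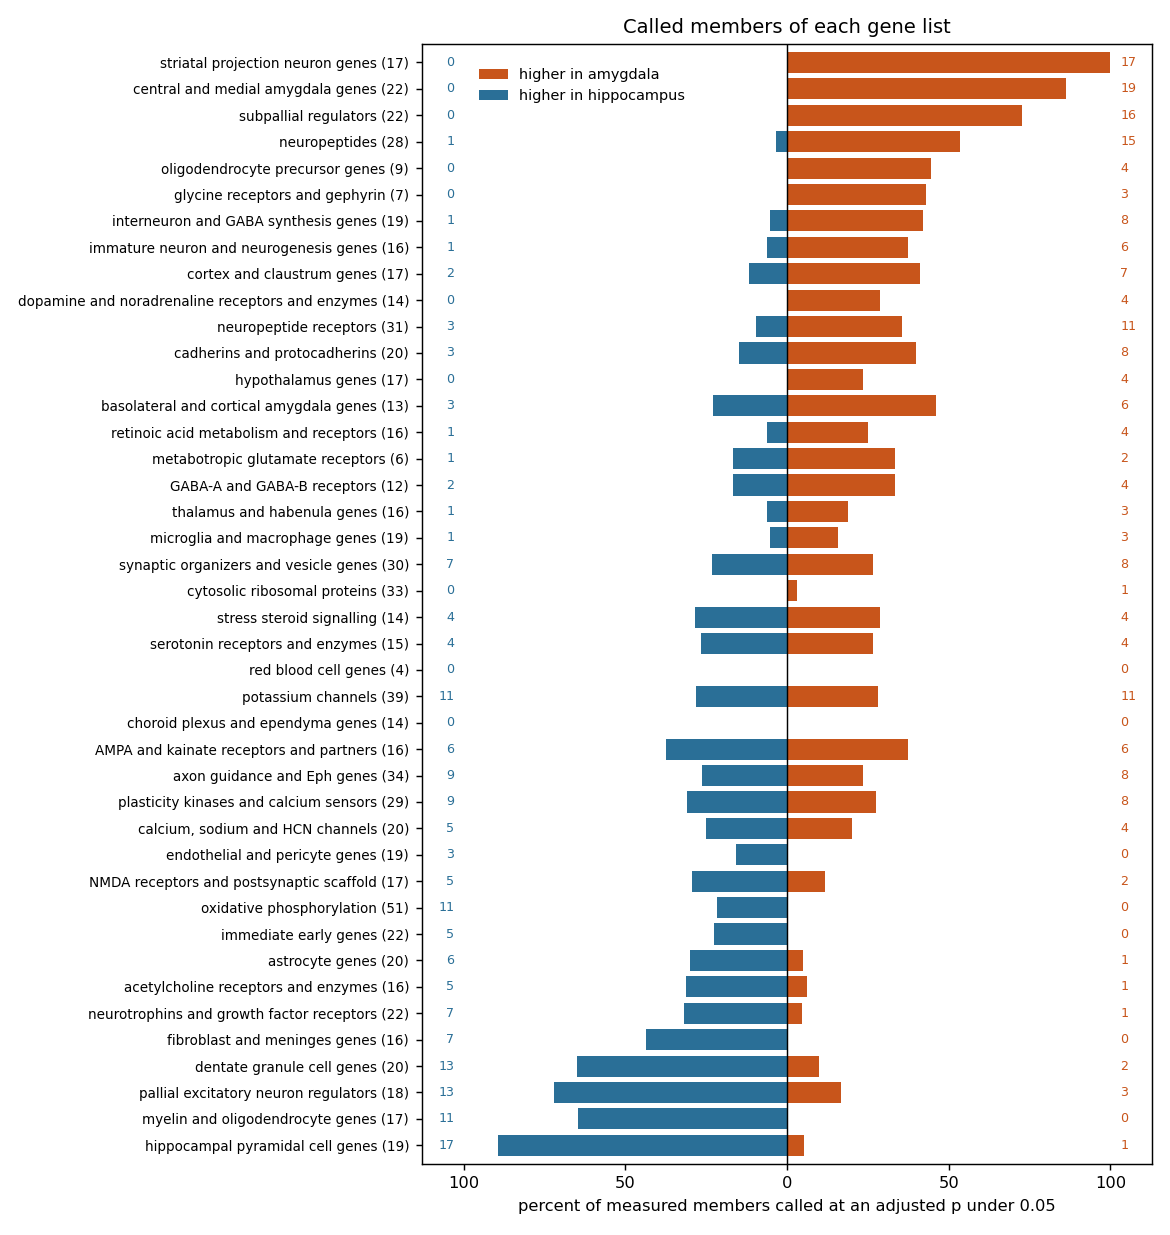
Percent of the measured members of each of 42 gene lists (vertical axis, ordered by the net share, number measured in brackets) that were called higher in amygdala (to the right) or in hippocampus (to the left), on an axis from 0 to 100 on each side, with the counts at the edges. Striatal (17 of 17) and central and medial amygdala genes (19 of 22) stand at the top, and pyramidal cell (17 of 19) and myelin genes (11 of 17) at the bottom.

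Of 28 measured neuropeptide genes, 15 were higher in amygdala and 1, Cck, in hippocampus. After Penk, the largest difference was that of Tac2, the neurokinin B precursor, which read 7.68 to 8.29 in amygdala, median 8.03, and 4.54 to 6.42 in hippocampus, median 6.07, a 4.52-fold difference (adjusted p = 8.36e-05). Crh, corticotropin-releasing hormone of central amygdala neurons, read 7.88 to 8.79 in amygdala, median 8.26, and 6.00 to 6.39 in hippocampus, median 6.20, a 4.23-fold difference (adjusted p = 1.58e-06). Tac1, the substance P precursor, read 9.79 to 10.49 in amygdala, median 10.02, and 7.80 to 8.56 in hippocampus, median 8.11, a 3.74-fold difference (adjusted p = 1.60e-06). None of these overlapped. Cartpt, the CART peptide precursor (1.87 ± 0.12, adjusted p = 3.48e-07), Sst, somatostatin (1.10 ± 0.077, adjusted p = 8.02e-07), and Scg2, the granin secretogranin II (0.71 ± 0.10, adjusted p = 3.62e-04), were also higher in amygdala on every array, and Cartpt and Scg2 are named for their promoters, after their values were seen. Trh and Avp had differences of 1.05 and 1.11 and did not pass. Under the poly-A term 14 and 1 were called. The count for hippocampus was 2 without amygdala array 6 or hippocampus array 6.

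Several peptide genes are textbook targets of cyclic AMP signalling through the cAMP response element, which the factor CREB binds. The 8 letters TGACGTCA, which read the same on both strands, were searched in the 250 bases before the start of each gene in the RefSeq promoter table (GRCm38.p6), with no other motif. They stood in 3 of the 11 peptide genes higher in amygdala that had an entry (27.3%), in 4 of all 22 measured peptide genes with an entry (18.2%), in 361 of 14452 measured genes with an entry (2.5%), and in 478 of 27025 genes in the table (1.77%). Among the 30 genes of largest difference, 21 had an entry and Gpr6 alone held the letters. The 3 windows are shown 5′ to 3′ on the strand of the gene, with the element in capitals. All 3 genes lie on the minus strand.
Cartpt, chr13:99900752-99900831: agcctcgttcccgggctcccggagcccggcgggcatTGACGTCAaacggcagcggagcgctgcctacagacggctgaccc
Scg2, chr1:79440051-79440130: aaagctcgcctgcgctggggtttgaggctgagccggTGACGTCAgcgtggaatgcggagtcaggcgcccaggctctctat
Sst, chr16:23890849-23890928: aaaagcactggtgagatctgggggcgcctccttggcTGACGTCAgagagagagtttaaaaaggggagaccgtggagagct
The element began 112 bases before the start site in Cartpt, 68 in Scg2 and 48 in Sst. Such a match describes the letters and is no measure of binding. Of the genes called higher in amygdala 3.11% of those with an entry held it, and of those called higher in hippocampus 2.42%.

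Of 31 peptide receptor genes 11 were higher in amygdala and 3 in hippocampus, and 9 were below the array median on all 12 arrays. Cckbr, the receptor of cholecystokinin in brain, read 8.14 to 8.52 in amygdala, median 8.33, and 6.17 to 6.76 in hippocampus, median 6.58, a 3.48-fold difference (adjusted p = 1.73e-07), in the opposite direction to Cck itself. Oprk1, the kappa opioid receptor, differed by 1.39 ± 0.13 (adjusted p = 1.14e-05), Trhr, the thyrotropin-releasing hormone receptor, by 1.38 ± 0.22 (adjusted p = 7.97e-04), and Calcr, the calcitonin receptor, by 1.20 ± 0.21 (adjusted p = 0.00166). Sstr4, a somatostatin receptor, was higher in hippocampus and read 7.55 to 7.78 in amygdala, median 7.66, and 9.06 to 9.38 in hippocampus, median 9.19, a 2.92-fold difference (adjusted p = 6.91e-08), while its ligand Sst was higher in amygdala. Npy5r, a neuropeptide Y receptor, was also higher in hippocampus (-0.64 ± 0.13, adjusted p = 0.00457), and Npy higher in amygdala (0.83 ± 0.085, adjusted p = 2.26e-05). The poly-A term gave 5 and 1 receptor calls.

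Ionotropic glutamate receptors and their partners differed subunit by subunit. In the AMPA and kainate list 6 of 16 were higher in each tissue. Higher in hippocampus were the auxiliary subunits Cacng8 (-1.19 ± 0.13, adjusted p = 5.58e-05) and Cnih2 (-0.84 ± 0.072, adjusted p = 4.67e-06), the kainate subunit Grik4 (-0.86 ± 0.13, adjusted p = 5.14e-04) and the AMPA subunit Gria1 (-0.77 ± 0.091, adjusted p = 7.44e-05). Higher in amygdala were the kainate subunits Grik3, at 8.52 to 9.04 in amygdala, median 8.65, and 7.14 to 7.49 in hippocampus, median 7.36, a 2.61-fold difference (adjusted p = 1.61e-06), and Grik1 (0.64 ± 0.12, adjusted p = 0.00221), and the auxiliary subunits Neto2 (0.69 ± 0.088, adjusted p = 1.62e-04) and Cnih3 (0.65 ± 0.10, adjusted p = 8.57e-04). In the list of NMDA receptors and scaffolds 5 of 17 were higher in hippocampus, among them the subunits Grin2a (-0.87 ± 0.15, adjusted p = 0.00213) and Grin2b (-0.50 ± 0.075, adjusted p = 5.52e-04) and the scaffold Homer2 (-0.94 ± 0.13, adjusted p = 2.46e-04). The other 2 called were higher in amygdala, the subunit Grin3a (0.50 ± 0.12, adjusted p = 0.0155) and the scaffold Dlg1, SAP97 (0.65 ± 0.067, adjusted p = 2.54e-05). Grin2a read near the floor in amygdala, and its difference was -1.44 with a pseudocount of 1 and -0.40 with 64. Of 6 metabotropic receptors, Grm8 (1.12 ± 0.16, adjusted p = 3.28e-04) and Grm4 (0.58 ± 0.14, adjusted p = 0.0137) were higher in amygdala and Grm2 in hippocampus (-0.69 ± 0.096, adjusted p = 3.30e-04). A fit with the poly-A term gave 4 and 4 AMPA and kainate calls, 2 and 3 in the NMDA list and 0 metabotropic ones.

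Of 12 measured GABA-A and GABA-B receptor genes, 4 were higher in amygdala and 2 in hippocampus. Gabra5, the alpha-5 subunit of extrasynaptic GABA-A receptors in pyramidal cells, read 8.78 to 9.26 (median 9.05) in the 6 amygdala samples and 10.51 to 10.65 (median 10.56) in the 6 hippocampus samples, a difference of -1.51 ± 0.088 (2.85-fold, adjusted p = 1.73e-07). Gabrb1 was also higher in hippocampus (-0.50 ± 0.089, adjusted p = 0.00206). Higher in amygdala were Gabra3 (1.32 ± 0.091, adjusted p = 7.31e-07), Gabrg1 at 8.84 to 9.37 in amygdala, median 8.99, and 7.42 to 7.85 in hippocampus, median 7.61, a 2.69-fold difference (adjusted p = 1.61e-06), Gabrd (0.82 ± 0.11, adjusted p = 2.12e-04) and Gabrg3 (0.78 ± 0.093, adjusted p = 9.09e-05). Among glycine receptor subunits, which form chloride channels, Glra3 read 7.85 to 8.76 (median 8.19) in the 6 amygdala samples and 5.57 to 5.71 (median 5.68) in the 6 hippocampus samples, a difference of 2.53 ± 0.13 (5.79-fold, adjusted p = 6.91e-08). Glra2 read 7.95 to 8.45 in amygdala, median 8.17, and 6.10 to 6.30 in hippocampus, median 6.26, a 3.88-fold difference (adjusted p = 4.67e-08). For both genes the hippocampus arrays lay close together and all below the amygdala arrays. Glra1, the adult spinal form, was below the array median on all 12 arrays, and the glycine list had 3 of 7 called for amygdala and 0 for hippocampus. After adding the poly-A term 2 and 1 GABA receptor genes and 2 glycine list genes were called.

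Among receptors of the modulatory amines, Drd1 and Drd2 were accompanied by the synthetic enzymes Ddc (1.04 ± 0.095, adjusted p = 8.86e-06) and Th (0.85 ± 0.21, adjusted p = 0.0201), the only other calls among 14 genes of dopamine and noradrenaline. Th was below the array median on all 12 arrays and its values overlapped. Serotonin genes were split 4 and 4 of 15. Htr2c, a receptor coupled to phospholipase C, read 10.18 to 10.59 in amygdala, median 10.41, and 8.38 to 9.15 in hippocampus, median 8.85, a 3-fold difference (adjusted p = 1.98e-06), and Htr1b, a presynaptic receptor, differed by 1.31 ± 0.15 (adjusted p = 7.05e-05). Higher in hippocampus were Htr5b, with overlapping arrays (-1.10 ± 0.22, adjusted p = 0.00468), and without overlap Htr1a (-0.80 ± 0.10, adjusted p = 1.53e-04) and Htr4 (-0.75 ± 0.083, adjusted p = 4.51e-05). Of 16 acetylcholine genes 5 were higher in hippocampus (6.64% of all genes were), led by the muscarinic receptor Chrm3. It read 4.33 to 5.29 in amygdala, median 4.91, and 5.75 to 6.40 in hippocampus, median 6.12, a difference of -1.24 ± 0.15 (adjusted p = 1.27e-04). Near the floor in amygdala, Chrm3 differed by -2.02 with a pseudocount of 1 and -0.60 with 64. The nicotinic subunit Chrna7 was among the 5 (-0.74 ± 0.068, adjusted p = 9.70e-06). Ache, acetylcholinesterase, was the 1 higher in amygdala (0.34 ± 0.090, adjusted p = 0.0231), a call lost without amygdala array 1 or 5 or hippocampus array 4 or 5, at adjusted p up to 0.0523. A poly-A term in the fit gave 3 dopamine list calls, 2 and 1 in the serotonin list and 0 and 2 in the acetylcholine list.

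Receptors of stress steroids differed between tissues by type. Nr3c2, the mineralocorticoid receptor, read 7.91 to 8.39 (median 8.19) in the 6 amygdala samples and 10.11 to 10.21 (median 10.13) in the 6 hippocampus samples, a difference of -1.96 ± 0.085 (3.9-fold, adjusted p = 2.19e-08). Hsd11b1, the enzyme that regenerates active glucocorticoid, read 6.96 to 7.22 in amygdala, median 7.12, and 8.50 to 8.79 in hippocampus, median 8.75, a 3.08-fold difference (adjusted p = 4.19e-08). Sgk1, a kinase induced by both corticoid receptors, was higher in hippocampus as well (-0.82 ± 0.13, adjusted p = 7.30e-04). Nr3c1, the glucocorticoid receptor, differed by -0.09 and was not called. Esr1, oestrogen receptor alpha, was higher in amygdala and read 6.56 to 7.45 in amygdala, median 6.96, and 4.45 to 5.54 in hippocampus, median 5.06, a 4.04-fold difference (adjusted p = 1.47e-05), as was Crhr1, the receptor of Crh (0.43 ± 0.094, adjusted p = 0.00852). The list had 4 of 14 called each way, and 2 and 3 with the poly-A term.

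Kinases and calcium sensors of synaptic plasticity were split 8 for amygdala and 9 for hippocampus of 29. Camk2a, the alpha subunit of calmodulin kinase II, was higher in hippocampus (-0.98 ± 0.090, adjusted p = 9.66e-06), while Camk2d, its delta subunit, was higher in amygdala and read 9.35 to 10.17 in amygdala, median 9.99, and 7.16 to 7.91 in hippocampus, median 7.45, a 5.3-fold difference (adjusted p = 6.62e-07), with 6 of 7 probe sets called. Among neuronal calcium sensors the pattern was alike: Hpca, hippocalcin, was higher in hippocampus (-1.27 ± 0.10, adjusted p = 3.33e-06) and Hpcal1 higher in amygdala and read 10.67 to 11.01 in amygdala, median 10.90, and 8.78 to 9.06 in hippocampus, median 8.94, a 3.84-fold difference (adjusted p = 1.92e-08). Prkca, protein kinase C alpha (-1.27 ± 0.073, adjusted p = 1.61e-07), and Nrgn, the calmodulin-binding protein neurogranin (-0.81 ± 0.094, adjusted p = 7.29e-05), were higher in hippocampus. Pcp4, another calmodulin regulator (1.10 ± 0.11, adjusted p = 2.48e-05), and Camk4 (0.78 ± 0.11, adjusted p = 2.66e-04, 1 of 5 probe sets called) were higher in amygdala. With the poly-A level as a term, 5 were called each way.

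Immediate early genes, which neurons switch on within minutes of activity, had a median within-tissue SD of 0.335 in amygdala and 0.270 in hippocampus, against 0.198 and 0.202 over all genes. Such a spread was not particular to them: it was 0.363 and 0.376 for hypothalamus genes and 0.384 and 0.290 for fibroblast and meninges genes. Most other lists had smaller values. Of 22 immediate early genes, 5 were higher in hippocampus and 0 in amygdala, a count that was 1 without amygdala array 3 or hippocampus array 1. Arc, a synaptic capsid-like protein induced by learning, read 5.42 to 7.67 (median 5.83) in the 6 amygdala samples and 6.52 to 8.63 (median 8.06) in the 6 hippocampus samples, a difference of -1.67 ± 0.44 (3.19-fold, adjusted p = 0.0245), with overlap. That call was lost, at adjusted p up to 0.0569, without amygdala array 1, 3, 4 or 5 or hippocampus array 1, 2 or 3. Nr4a3, a nuclear receptor, differed by -1.07 ± 0.14 (adjusted p = 1.73e-04) and Jun by -1.02 ± 0.14 (adjusted p = 2.65e-04), both without overlap. Fos and Egr1 differed by -0.01 and 0.01. Bdnf, brain-derived neurotrophic factor, was higher in hippocampus and read 7.59 to 8.28 in amygdala, median 7.94, and 8.44 to 8.79 in hippocampus, median 8.57, a 1.56-fold difference (adjusted p = 0.00275). It was among 7 of 22 growth factor genes higher there, with Fgf13 (-0.67 ± 0.069, adjusted p = 2.31e-05) and Igfbp5 (-0.66 ± 0.094, adjusted p = 3.77e-04). Igf1r, the insulin-like growth factor receptor, was the 1 higher in amygdala (0.41 ± 0.10, adjusted p = 0.0182), with overlap, and differed by -0.03 with the poly-A term. That count was 2 without amygdala array 6 or hippocampus array 5, and 3 without hippocampus array 6. A poly-A term in the fit gave 3 calls for hippocampus and 0 for amygdala in each of these lists.

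Of 16 genes that make, degrade or sense retinoic acid, 4 were higher in amygdala. Rxrg, a retinoid X receptor, read 7.97 to 8.19 in amygdala, median 8.08, and 6.03 to 6.50 in hippocampus, median 6.18, a 3.71-fold difference (adjusted p = 3.56e-08), and Rarb, the retinoic acid receptor beta, differed by 1.60 ± 0.14 (adjusted p = 5.98e-06). Crabp1, a cellular binding protein, differed by 1.27 ± 0.26 (adjusted p = 0.00489). Cyp26b1, given above, was the other. Aldh1a1, a retinaldehyde dehydrogenase, was the 1 higher in hippocampus (-1.17 ± 0.11, adjusted p = 9.26e-06), a count that was 2 without hippocampus array 3. Once the poly-A level was a term, 3 and 1 were called.

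Adhesion and guidance molecules differed widely and in both directions. Of 20 cadherins and protocadherins 8 were higher in amygdala and 3 in hippocampus. Cdh22 read 8.36 to 8.62 in amygdala, median 8.53, and 6.64 to 6.99 in hippocampus, median 6.83, a 3.28-fold difference (adjusted p = 3.71e-08), Pcdh7 differed by 1.50 ± 0.085 (adjusted p = 1.47e-07) and Pcdh10 by 1.41 ± 0.11 (adjusted p = 1.98e-06, 6 of 6 probe sets). Pcdh20 was higher in hippocampus and read 8.37 to 8.67 in amygdala, median 8.46, and 9.82 to 10.11 in hippocampus, median 10.01, a 2.83-fold difference (adjusted p = 7.80e-08). Of 34 guidance genes 8 were higher in amygdala and 9 in hippocampus. Sema3a, a secreted repellent, read 8.25 to 8.39 (median 8.31) in the 6 amygdala samples and 5.66 to 6.39 (median 5.99) in the 6 hippocampus samples, a difference of 2.32 ± 0.11 (4.98-fold, adjusted p = 4.67e-08). Its receptor Nrp1 went the other way, at 8.77 to 9.15 in amygdala, median 8.98, and 10.13 to 10.34 in hippocampus, median 10.27, a 2.41-fold difference (adjusted p = 3.22e-07). The ephrin receptors Epha7 (-1.32 ± 0.13, adjusted p = 1.21e-05) and Epha4 (-1.16 ± 0.10, adjusted p = 5.74e-06, 5 of 5 probe sets) were higher in hippocampus, and the ephrin Efnb2 higher in amygdala (0.95 ± 0.12, adjusted p = 1.05e-04). Unc5d, a netrin receptor family member (1.38 ± 0.086, adjusted p = 2.98e-07), and Plxnd1, a semaphorin receptor (1.30 ± 0.093, adjusted p = 9.72e-07), were higher in amygdala. In the fit with the poly-A term 7 and 2 cadherins and 4 and 8 guidance genes were called.

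Synaptic organizers and vesicle genes were called 8 and 7 of 30. Cbln4, a cerebellin related to the C1q-like proteins, was higher in amygdala and read 7.90 to 8.13 in amygdala, median 7.99, and 6.66 to 6.98 in hippocampus, median 6.88, a 2.21-fold difference (adjusted p = 8.20e-07), as were the synaptotagmin Syt4 (0.74 ± 0.075, adjusted p = 2.18e-05) and Syn3 (0.72 ± 0.074, adjusted p = 2.45e-05). Nptx1, neuronal pentraxin, was higher in hippocampus and read 9.99 to 10.17 in amygdala, median 10.07, and 11.20 to 11.41 in hippocampus, median 11.31, a 2.35-fold difference (adjusted p = 1.02e-07), with the adhesion protein Lrrtm1 (-1.05 ± 0.082, adjusted p = 1.89e-06) and the complexin Cplx2 (-1.01 ± 0.16, adjusted p = 7.30e-04). Potassium channels were called 11 and 11 of 39. Kcna5 read 7.11 to 7.35 in amygdala, median 7.20, and 4.90 to 5.99 in hippocampus, median 5.13, a 3.87-fold difference (adjusted p = 3.70e-06), and Kcnf1, a silent modifier of Kv2 channels, differed by 1.51 ± 0.14 (adjusted p = 8.87e-06). Kcnn2, a small-conductance calcium-activated channel, was higher in hippocampus (-1.04 ± 0.11, adjusted p = 3.62e-05), with the beta subunit Kcnab2 (-0.95 ± 0.097, adjusted p = 2.29e-05). Of 20 calcium, sodium and HCN channel genes 4 were higher in amygdala, led by Scn4b and Cacna2d2 (1.22 ± 0.11, adjusted p = 9.56e-06), and 5 in hippocampus, led by Scn3b (-0.71 ± 0.072, adjusted p = 2.09e-05). Under the poly-A term the counts were 4 and 5 for organizers, 5 and 5 for potassium channels and 2 and 1 for the others.

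Genes of cells other than neurons also differed. Myelin and oligodendrocyte genes were higher in hippocampus for 11 of 17 and in amygdala for 0, none by 2-fold: Mobp, a myelin protein, read 10.16 to 10.54 in amygdala, median 10.40, and 10.97 to 11.37 in hippocampus, median 11.18, a 1.72-fold difference (adjusted p = 6.12e-05). Their summed linear signal was 14306 to 16409 in amygdala and 18237 to 22218 in hippocampus. Precursor genes went the other way, 4 of 9 higher in amygdala, with Lhfpl3 (1.07 ± 0.11, adjusted p = 3.19e-05) and Gpr17, a receptor of committed precursors (0.82 ± 0.18, adjusted p = 0.00916). Of 20 astrocyte genes 6 were higher in hippocampus: Gfap, the intermediate filament, read 7.31 to 8.19 in amygdala, median 7.55, and 8.37 to 9.22 in hippocampus, median 8.86, a 2.36-fold difference (adjusted p = 2.22e-04) and Aqp4, the water channel, differed by -0.64 ± 0.075 (adjusted p = 7.26e-05). The 1 astrocyte gene higher in amygdala, Agt (0.70), lost its call, at adjusted p up to 0.0657, on leaving out any single array other than amygdala array 6 or hippocampus array 1 or 6. Genes of fibroblasts and meninges were higher in hippocampus for 7 of 16, with Dcn, Lum (-1.20 ± 0.21, adjusted p = 0.00171) and Ogn (-1.17 ± 0.24, adjusted p = 0.00563), and their summed signal was 923 to 1712 in amygdala and 1736 to 2418 in hippocampus. After adding the poly-A term 1 myelin, 1 astrocyte and 1 fibroblast gene were called for hippocampus and 2 precursor genes for amygdala.

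Lists of other cell types stand beside 8.43% of all genes called for amygdala and 6.64% for hippocampus. Endothelial and pericyte genes were called for hippocampus in 3 of 19 (Vwf, -0.52; Rgs5, -0.36; Abcb1a, -0.26) and in 0 with the poly-A term. Microglial genes were called 3 and 1 of 19, Aif1 (0.58), Cd68 (0.41) and Tmem119 (0.34) for amygdala and Lyz2 (-0.45) for hippocampus. The 3 became 0 without amygdala array 1 and 1 without amygdala array 4 or hippocampus array 1, 2, 4 or 5, and the call of Lyz2 was lost, at adjusted p up to 0.0764, on leaving out any array other than amygdala array 3 or 4. Choroid plexus and red blood cell genes were called in neither direction. The choroid plexus list, with transthyretin, varied from array to array in both tissues, its summed signal running from 1799 to 14959 in amygdala and from 1818 to 17305 in hippocampus. Immature neuron genes were higher in amygdala for 6 of 16, led by Dcx, doublecortin, at 8.61 to 9.24 in amygdala, median 8.93, and 7.36 to 7.98 in hippocampus, median 7.73, a 2.39-fold difference (adjusted p = 2.20e-05), and Stmn2 was higher in hippocampus (-0.45 ± 0.093, adjusted p = 0.00598). With the poly-A level as a term, 1 and 0 of these were called. The proliferation genes Mki67 and Top2a were below the array median on all 12 arrays. Genes of regions that border the dissected tissue were read as well. Of 17 cortex and claustrum genes 7 were higher in amygdala, with Rprm (1.17 ± 0.11, adjusted p = 1.17e-05) and Cux2 (0.92 ± 0.096, adjusted p = 2.57e-05), and 2 in hippocampus, Fezf2 (-1.14 ± 0.13, adjusted p = 8.08e-05) and Lmo4 (-0.49 ± 0.10, adjusted p = 0.00618). Of 17 hypothalamus genes 4 were higher in amygdala, among them Otp (1.20 ± 0.29, adjusted p = 0.0166, with overlap) and Gal (1.14 ± 0.17, adjusted p = 6.42e-04). Otp and Gal are also counted in the central and medial amygdala list. Some other genes, such as Foxp2 and Slc17a6, likewise stand in more than 1 list. In the hypothalamus list 8 were below the array median on all 12 arrays, Rax, Ghrh and Nkx2-1 among them. Of 16 thalamus and habenula genes 3 were called for amygdala and 1 for hippocampus, Plekhg1 (-0.78 ± 0.097, adjusted p = 1.15e-04), 2 without amygdala array 4. The 7 of low signal, with Tcf7l2 and Gbx2, were below the array median on all arrays. The part of these cell types and regions in the results above was not tested.

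Oxidative phosphorylation genes were called for hippocampus in 11 of 51, by small amounts: the largest difference, that of Ndufs7, was -0.39 ± 0.065 (adjusted p = 0.00148). The count was 7 without amygdala array 4 or 5 or hippocampus array 2, and 0 with the poly-A term. Of 33 cytosolic ribosomal protein genes Rpl37 alone was called, for amygdala (0.40 ± 0.082, adjusted p = 0.00588), and without hippocampus array 2 the count was 2.

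The genes that separated the tissues most evenly were found by setting the wider within-tissue range against the difference. For hippocampus these were Dsp, Zbtb20, Tanc1, Nfix and Nptx1, and for amygdala Gap43, Prkar2b, Zcchc12, Dpp10 and Hpcal1. Zcchc12, a zinc finger coactivator, read 10.55 to 10.88 (median 10.78) in the 6 amygdala samples and 8.98 to 9.04 (median 8.99) in the 6 hippocampus samples, a difference of 1.76 ± 0.072 (3.4-fold, adjusted p = 1.92e-08). Dpp10, an auxiliary subunit of Kv4 channels, read 9.76 to 9.96 in amygdala, median 9.81, and 7.79 to 8.04 in hippocampus, median 7.96, a 3.74-fold difference (adjusted p = 1.04e-08). Gap43, a growth cone protein, read 11.23 to 11.50 in amygdala, median 11.42, and 9.94 to 10.01 in hippocampus, median 9.99, a 2.68-fold difference (adjusted p = 3.71e-08). Prkar2b, a regulatory subunit of protein kinase A, read 9.24 to 9.51 in amygdala, median 9.39, and 7.76 to 8.01 in hippocampus, median 7.86, a 2.84-fold difference (adjusted p = 4.19e-08). The remaining genes of the 15 largest for amygdala were Ngb, neuroglobin (2.79 ± 0.21, adjusted p = 1.29e-06), Myh7, a myosin heavy chain (2.36 ± 0.14, adjusted p = 1.73e-07), and Sh3rf2 (2.23 ± 0.22, adjusted p = 1.77e-05).

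A gene's probe sets did not always move together. Of 861 genes with at least 2 called probe sets, 834 had them in 1 direction and 27 (3.14%) in both. Syne1, which encodes the nuclear envelope spectrin-repeat protein nesprin-1 in many isoforms, had 1 probe set far higher in hippocampus (1455225_at, 8.63 to 9.03 in amygdala and 10.25 to 10.52 in hippocampus, difference -1.51 ± 0.088, adjusted p = 1.80e-07). The other pair was higher in amygdala, 1421545_a_at by 0.47 ± 0.13 and 1455493_at by 0.40 ± 0.097. In the high line the same 3 probe sets differed by -1.42, 0.47 and 0.46. Taok1, a kinase of the Ste20 family, had 1424657_at higher in amygdala (0.54 ± 0.16) and 1426358_at (-0.22 ± 0.067) and 1455432_at (-0.58 ± 0.096) higher in hippocampus. The value of 1424657_at on amygdala array 3, at 10.29, was the lowest of its group, and its sign turned to -0.15 with the poly-A term. The other 6 with the largest opposed differences were Cspp1, Glcci1, Minar1, Pvt1, Spred1 and Zfr2. The files hold no probe sequences to place these probe sets on transcripts, so which isoform each reads is not stated here.

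**Figure D4:**
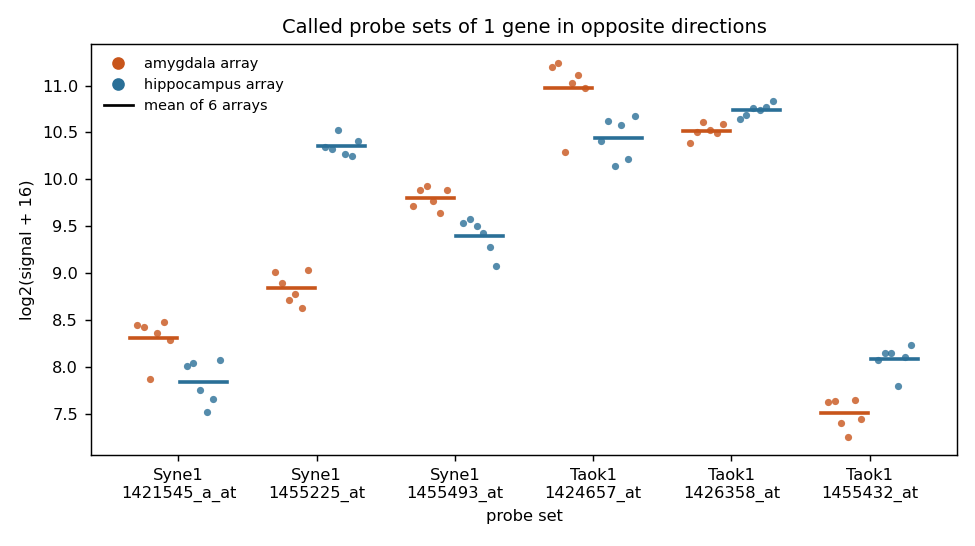
Level in log2(signal + 16) (vertical axis) of the called probe sets of Syne1 and Taok1 (horizontal axis), with 1 point per low-line array and a line at the mean of 6 arrays. Within each gene the tissues change order from one probe set to another: 1455225_at of Syne1 is 1.51 lower in amygdala, while 1421545_a_at is 0.47 higher.

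The 12 arrays of the high freezing line, which had no part in the calls above, were fitted in the same way and gave 6917 calls (15.4%). Of the 5424 low-line calls, 3687 were called with the same sign in the high line (68.0% of the low-line calls and 53.3% of the high-line calls), 3 were called with the opposite sign, and 5255 (96.9%) had the same sign whether called or not. Of the 673 at 2-fold or more, 641 (95.2%) were called with the same sign. Penk differed by 3.54 in the low line and 3.59 in the high line, Dsp by -3.87 and -3.80, Drd1 by 2.83 and 2.69, and Nr3c2 by -1.96 and -1.86. C1ql2 and Tdo2, singled out after their values were seen, had smaller differences in the high line (-1.99 and -1.80) than in the low line (-2.88 and -2.53), which were not shown to differ by the test below. The high-line arrays carry the same difference in poly-A controls between tissues.

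The difference of the tissue effect between the lines was tested over all 24 arrays. No probe set passed with limma (0.00%; lowest adjusted p 0.156), while 3189 had an unadjusted p under 0.05, and 1 was called without amygdala array 1. The 5 genes of lowest p, given as values that did not pass (adjusted p = 0.26 each), were Pde1c, a cyclic nucleotide phosphodiesterase (low minus high 0.92 ± 0.17), Armh4 (-0.74 ± 0.14), Foxk1 (0.88 ± 0.17), Tmco5 (0.74 ± 0.15) and Ppp4r1l-ps (1.15 ± 0.23). Of the 2-fold calls, 2 had the opposite sign in the high line, named after their values were seen. The probe set of Prl, prolactin, was 1.73 ± 0.47 in the low line (adjusted p = 0.028) and -0.55 in the high line, and that of Rrp9 was -1.21 ± 0.11 (adjusted p = 8.87e-06) and 0.26. Neither passed the test between lines (adjusted p = 0.446 for Prl and 0.284 for Rrp9). The 3 called in opposite directions were Pde1c (0.57 and -0.35), Strc (-0.39 and 0.50) and 1 probe set that is unnamed here.

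**Figure D5:**
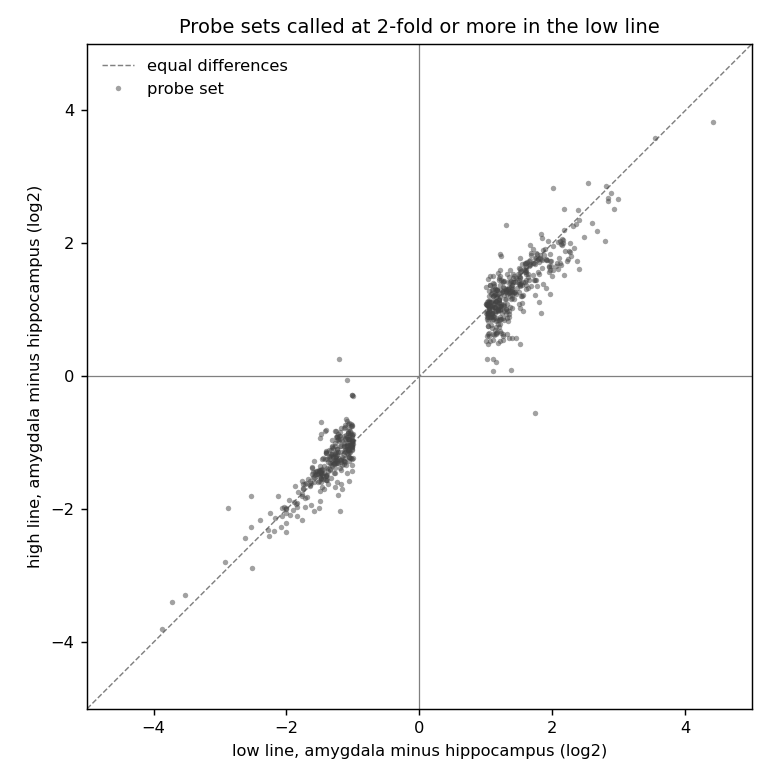
Difference amygdala minus hippocampus in log2 in the low line (horizontal axis) and in the high line (vertical axis) for the 673 probe sets called at 2-fold or more in the low line, 1 point each, with the line of equal differences dashed. All but 2 points have the same sign in both lines; the outer points follow from the choice of probe sets by their low-line difference.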

How the data were processed

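Expression was measured on Affymetrix mouse oligonucleotide arrays, 1 per sample, in the amygdala and hippocampus of line 24 (12 arrays) and line 25 (12 arrays). The deposited values are linear signal intensities per probe set, and the authors' signal algorithm is not given in the sources used here. In the deposited columns the mean after trimming 2% at each end is 150 on every array, so the values had been scaled to a common level before deposit. No depth applies to arrays: their number, 6 in each group, limits the precision.

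After 64 control probe sets were set aside, 45037 were analysed as log2(value + 16), without filter or further normalization. Means were compared with limma 3.58.1 in R 4.3.3 (lmFit and eBayes, 2 groups, two-sided), with Benjamini-Hochberg adjustment over all 45037 at 0.05. Array measures were compared by exact permutation tests over 924 arrangements. The fit was also run on simulated arrays with independent noise, with changes placed only in probe sets above the median signal. These arrays held no difference in preparation between tissues, so that run cannot speak to such a difference. Gene names come from the platform annotation updated through RefSeq: 34945 probe sets had 1 symbol, 932 several and 9160 none, and the latter are unnamed here. A gene was read from its probe set of highest mean, giving 18193 genes. Promoter windows come from RefSeq (GRCm38.p6).

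Genes were named by a rule: the 15 of largest difference each way, up to 4 per direction from each of 42 lists, the most evenly separated, those with opposed probe sets and those with the lowest p between lines. Any other gene in the text was picked after its values were seen. The members and lists were chosen with earlier results of these data known. Array numbers did not pair the tissues: deviations of arrays with the same number correlated at -0.055 to 0.045. Alternatives were other pseudocounts, a filter on the lowest 40% of probe sets, quantile normalization, median centring, an intensity trend, a fit of all 24 arrays, the array number as a block, each array left out and, added after seeing the data, the poly-A control as a term.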

Additional observations from a re-analysis of the deposited data

Results flagged for a closer look

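Within each group of 6 arrays the gap between an extreme value and its nearest neighbour was divided by the range of the group; values whose ratio passed Dixon's 95% limit are given here. They were 30 of 386 groups tested, and chance marks about 1 in 20. Their causes were not tested. On amygdala array 1 the highest value of its group was that of Gabrg3 (7.36 against 7.15, ratio 0.653), Lefty1 (5.37 against 4.63, ratio 0.905) and Tanc1 (7.76 against 7.58, ratio 0.634). Among array measures in linear signal, amygdala array 1 stood apart for 75th percentile (168.9 against 167, highest, ratio 0.645). Amygdala array 2 gave the lowest value of Cd68 (6.26 against 6.71, ratio 0.815). For Igf1r (8.53 against 8.97, ratio 0.775), the lowest value came from amygdala array 3. Among array measures in linear signal, amygdala array 3 stood apart for actin 5' (4613 against 5926, lowest, ratio 0.762), poly-A control dap 3' (1972 against 71.88, highest, ratio 0.994), poly-A control thr 3' (396.5 against 13.44, highest, ratio 0.976), poly-A control phe 3' (290.9 against 32.01, highest, ratio 0.964) and poly-A control lys 3' (105.5 against 19.52, highest, ratio 0.880). On amygdala array 5 the lowest value of its group was that of Arpp21 (11.07 against 11.44, ratio 0.747), Drd1 (8.52 against 9.17, ratio 0.678), Drd2 (6.64 against 7.35, ratio 0.736) and Gpr6 (7.58 against 8.30, ratio 0.707). Amygdala array 5 gave the lowest value of Grm4 (6.80 against 7.10, ratio 0.715), Plekhg1 (5.98 against 6.34, ratio 0.663) and Ppp1r1b (8.19 against 9.16, ratio 0.679). For Gabra3 (9.80 against 9.52, ratio 0.685), the highest value came from amygdala array 5. On amygdala array 6 the lowest value of its group was that of Agt (6.89 against 7.81, ratio 0.777) and Vwf (5.52 against 5.79, ratio 0.883). Amygdala array 6 gave the highest value of Prox1 (5.84 against 5.64, ratio 0.726). For Glra3 (5.57 against 5.67, ratio 0.697), the lowest value came from hippocampus array 1. On hippocampus array 3 the lowest value of its group was that of Hsd11b1 (8.50 against 8.71, ratio 0.706). Hippocampus array 5 gave the lowest value of Htr5b (5.80 against 6.34, ratio 0.750). For Rxrg (6.50 against 6.18, ratio 0.671) and Stmn2 (11.29 against 11.10, ratio 0.707), the highest value came from hippocampus array 5. On hippocampus array 6 the lowest value of its group was that of Htr1a (7.54 against 7.81, ratio 0.646) and Tac2 (4.54 against 5.88, ratio 0.715). Hippocampus array 6 gave the highest value of Zcchc12 (9.04 against 9.00, ratio 0.673).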

How the results depend on the processing

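The number of called probe sets, 5424 as reported, was 4902 with a pseudocount of 1, 6551 with 64, 6598 without the lowest 40%, 5418 after quantile normalization, 5115 after median centring and 6562 with an intensity trend. Leaving out 1 array gave 4544 to 5179. With the poly-A control as a term it was 1541, and the genes called were 809 in place of 2741; that fit rests on amygdala array 3, and the cause of the lower count was not tested. A paired fit with the array number as a replicate block called 4143 probe sets, of which 3903 were among those reported. The number at 2-fold or more, 673, was 1167 with a pseudocount of 1 and 328 with 64, since a pseudocount shrinks differences at low signal. Named genes near the floor in 1 tissue moved likewise. With 1 and with 64 the difference was -3.03 and -1.14 for Il16, 3.88 and 1.12 for Sh3rf2 and 2.39 and 0.59 for Crabp1. It was 2.69 and 0.49 for Calcr and 1.78 and 0.35 for Th. The count between lines ran from 0 to 1 over the arrays left out. The 27 genes with opposed probe sets became 51 with a pseudocount of 64 and 60 without the lowest 40%. With the poly-A term 37 of the 5424 called differences changed sign. Among the genes and probe sets followed through every alternative, called or not, 3 did: Ccdc153 to -0.18, Igf1r to -0.035 and Taok1 1424657_at to -0.15. For single genes 4363 comparisons kept direction and side of the threshold, 225 kept direction and missed it, and 2 reversed. Most of these alternatives left out 1 array and shared the rest, so much of that stability is built in. In the fit with the poly-A term alone, 74 of 219 genes missed the threshold and 2 reversed. Signals near the floor, such as those of Sim1 or Rax, limit what could be detected.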
